A study of Mus musculus with 6 samples.

Results

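The genes of the plasminogen activator system were examined in primary mesangial cells of the mouse, which support the capillaries of the kidney glomerulus, in the presence and absence of TGF-β1 (transforming growth factor beta 1). The set held 5 genes, taken by gene symbol, with earlier results of these data known. They were the activators Plat and Plau, the receptor Plaur, and the inhibitors Serpine2 and Serpinb2. Each of the 5 had 1 row in an RNA-Seq table of 19730 rows. The Control group (3 libraries) and the TGF-β1 group (3 libraries) were both grown from passage 3 to 6 cells in medium with 25.5 mM glucose and 20% foetal bovine serum, and TGF-β1 was added to the second group at 10 ng/ml for a period of 72 h. High glucose and serum were therefore shared by both groups, and no normal glucose group was analysed here. The labels give the cells as primary mesangial cells, with no strain or age, and do not say whether the 3 libraries of a group came from separate cultures. The p-values below measure the spread between these libraries, which may be technical. Values are FPKM, the fragments of a transcript per kilobase of its length and per M (mega) of mapped fragments, so levels of different genes can be set side by side.

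Plasminogen is a circulating proenzyme that is cut to plasmin by tissue-type plasminogen activator (tPA, encoded by Plat) or by urokinase (uPA, encoded by Plau). Urokinase works mostly at the cell surface, held by its receptor uPAR (encoded by Plaur), whereas tPA is best known for clot lysis on fibrin. Serpins act as suicide inhibitors of such enzymes: PAI-2 (Serpinb2), an inhibitor of urokinase, is largely kept inside cells, and protease nexin-1 (Serpine2) inhibits thrombin, urokinase and plasmin. In the glomerulus, plasmin takes part in the turnover of mesangial matrix.

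Depth, recovered from the smallest steps of the FPKM values, was about 10.1 to 11.1 M fragments per library. The labelled cell type was checked against its markers. Of 10 mesangial marker rows, 5 stayed below 1 FPKM in every library (Pdgfra, Itga8, Des, Thy1 and Agtr1a), while Pdgfrb, the PDGF receptor of mesangial cells and pericytes, went from 37.5 ± 4.82 to 29.2 ± 0.75 FPKM (limma adjusted p 0.0396) and Acta2, smooth muscle actin, from 997 ± 89.7 to 3887 ± 348 FPKM. The summed mesangial list, nearly all of it Acta2, was 955 to 1135 FPKM in Control and 3620 to 4302 FPKM with TGF-β1. Among 7 rows of tubular epithelial markers, Cdh16, Pax8 and Aqp1 passed the filter and all 3 fell. Their summed list dropped from between 233 and 298 FPKM to between 33.3 and 38.2 FPKM, with Cdh1 and Krt8 below 1 FPKM throughout. Krt18 and Lrp2, under the filter, moved in opposite directions. Krt18 was at 0.279 ± 0.12 and 1.57 ± 0.22 FPKM (limma adjusted p 0.0014 without the filter). Lrp2 was at 1.43 ± 0.44 and 0.230 ± 0.017 FPKM (limma adjusted p 0.0037 without the filter). The 5 podocyte rows summed to 27.8 to 32.2 FPKM in Control and 14.9 to 15.5 FPKM with TGF-β1, with the defining Nphs1 below 1 FPKM and all 4 tested rows falling. Endothelial markers summed to 8.60 to 9.31 and 5.68 to 7.35 FPKM, with Pecam1, Cdh5, Kdr and Tek below 1 FPKM, and macrophage markers to 8.26 to 9.83 and 2.33 to 3.27 FPKM, with Ptprc, Lyz2 and Itgam below 1 FPKM and Csf1r falling. The summed levels of these lists differed with the treatment, and their part in the changes below was not tested. Of 10791 tested protein-coding rows, 96 were low in the replicate 2 libraries of both groups, and results are also given without these libraries. Across all of these rows, Control libraries correlated at 0.980 to 0.987, with replicates 1 and 2 the closest pair. TGF-β1 replicate 2 correlated at 0.979 and 0.978 with replicates 1 and 3 of its group, which correlated at 0.994. In such bulk samples, fewer cells of a type and less RNA per cell cannot be told apart.

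TGF-β1 treatment was accompanied by opposite changes of the 2 activators: Plau rose 5.77-fold and Plat fell 1.96-fold, from 105 to 53.8 FPKM. The receptor Plaur rose 4.61-fold, Serpine2 rose 1.32-fold, and Serpinb2, with few fragments, was lower with TGF-β1. The two-sided test was made with limma on log2(FPKM + 1), and p-values were adjusted by Benjamini-Hochberg over the 11898 rows with a mean of at least 1 FPKM, and a gene was called changed at an adjusted p under 0.05. Of the 5 genes, 4 passed that filter and all 4 were called, 3 higher and 1 lower. The background was high: 24.5% of all tested rows were called higher, 23.6% lower and 48.1% in either direction, so a call alone sets these genes little apart from the rest. The groups did not overlap in any of the 4 tested genes, nor in 59.4% of all tested rows. When libraries were rescaled to a common sum over protein-coding rows, the median of all rows shifted by -0.17 on the log2 scale and the split of all calls became 2015 higher and 3927 lower, against 2911 and 2810 as deposited.

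**Figure D1:**
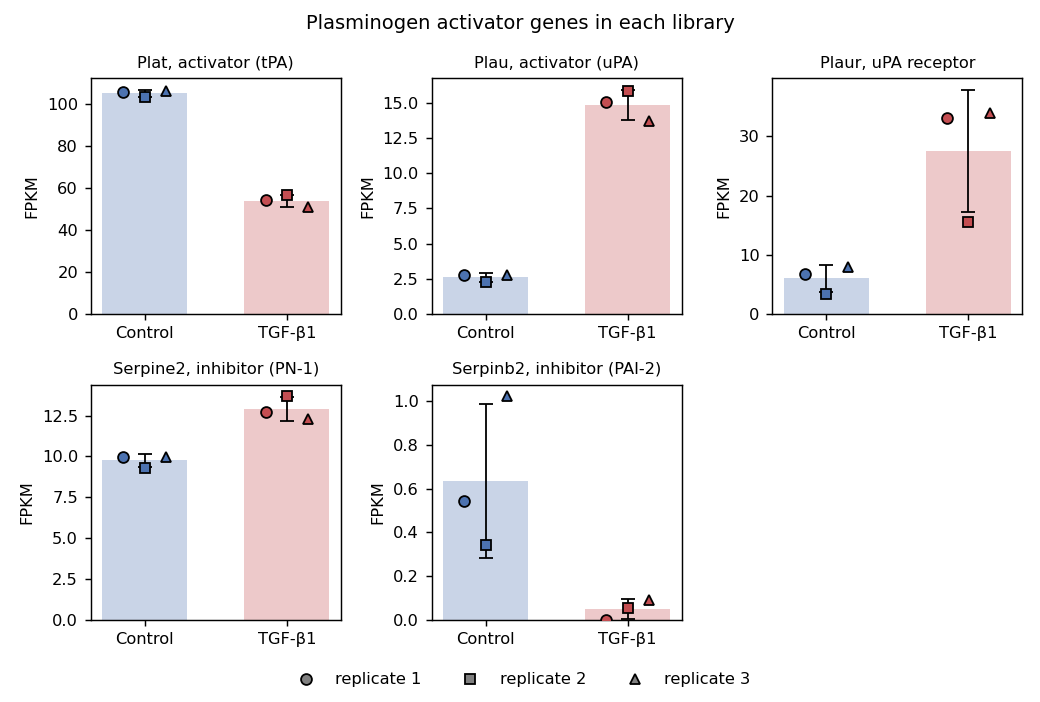
FPKM of the 5 genes in each of the 6 libraries, on linear axes that start at 0 and differ between panels. Bars are group means, error bars are SD (n = 3) and marker shapes give the replicate number. Plat falls from 105 to 53.8 FPKM, Plau and Plaur rise, and the replicate 2 libraries (squares) are low for Plaur in both groups.

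Sequence elements near the start sites are shown because the genes moved in different directions. Each window ran from 250 bases before to 50 bases after the annotated start of the transcript (mm9), was read on both strands, and was searched for CAGAC (the SMAD box bound by TGF-β effectors), TGANTCA (the AP-1 site), TATAAA (the TATA box), GGGCGG (the GC box) and TGACGTCA (the cAMP response element). Capitals mark the match, and distances are from the annotated start, counted as 0. A reverse-strand match reads as the reverse complement of the searched letters.
Plat, GC box on the reverse strand at -55, chr8:23868149-23868178, + strand: agaggagaaaccCCGCCCacacctctggcc
Plau, SMAD box at -249, chr14:21655634-21655663, + strand: aCAGACtgcgttaagtttgctcagctggaa
Plaur, AP-1 site at -86, chr7:25247421-25247450, + strand: aacccctggagcTGACTCActctttagcaa
Serpine2, SMAD box on the reverse strand at -178, chr1:79855433-79855462, - strand: tcgagcccggcgcGTCTGgccggagctttc
Serpinb2, AP-1 site at -94, chr1:109407894-109407923, + strand: tgagtaaaatgtTGAATCAtacaaagaata
Serpinb2, TATA box at -29, chr1:109407959-109407988, + strand: ggggcagagtctTATAAAaccagtcattac

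Among 10792 promoters of the same length, 4.64% held an AP-1 site, 7.11% a TATA box, 46.7% a SMAD box, 62.6% a GC box and 3.35% a cAMP response element. An AP-1 site was thus present in both Plaur, which rose, and Serpinb2, which was lower. Plau held 3 SMAD boxes and 2 GC boxes, and Plat held a GC box and no SMAD box. Serpine2 held 1 SMAD box and 6 GC boxes in a window of 77.0% GC, and Plaur held 3 GC boxes upstream of its AP-1 site, the last 2 of which share a base. No printed match overlaps a match to another of the searched motifs, and none of the 5 windows held a cAMP response element. These matches are descriptions of letters and were not tested for binding.

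Plat encodes tPA. Its row (ENSMUST00000033941, 14 exons, mm9 chromosome 8, 23868216 to 23893319, + strand) is the only annotated transcript of the gene, and no other gene overlaps it. Plat was at 106, 103 and 106 FPKM in Control replicates 1 to 3 and at 54.1, 56.6 and 50.7 FPKM in TGF-β1 replicates 1 to 3. Every TGF-β1 library was far below every Control library, and the replicates of each group were close together. Group means were 105 ± 1.64 and 53.8 ± 2.96 FPKM (SD, n = 3). The gene changed by -0.96 on the log2 scale, with SE 0.07, a 95% interval of -1.13 to -0.78 and an adjusted p of 1.75e-04 in limma. These levels rest on 1279 to 2737 estimated fragments per library. Plat remained among the higher expressed genes, above 94.9% of protein-coding rows in Control and above 88.7% with TGF-β1.

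Plau encodes urokinase. Its row (ENSMUST00000022368, 11 exons, chromosome 14, 21655884 to 21662610, + strand) is also a single annotated transcript without an overlapping gene. Plau was low in Control, at 2.78, 2.24 and 2.73 FPKM, and stood at 15.1, 15.9 and 13.7 FPKM with TGF-β1. The lowest TGF-β1 library was several times the highest Control library. Group means were 2.58 ± 0.30 and 14.9 ± 1.07 FPKM (SD, n = 3). The gene changed by 2.15 on the log2 scale, with SE 0.10, a 95% interval of 1.90 to 2.40 and an adjusted p of 3.35e-05 in limma. Estimated fragments were 53.07 to 66.1 per Control library and 319 to 355 per TGF-β1 library. Of all 11898 tested rows, 166 had a larger rise on this scale. In replicates 1 and 3 alone, the changes of Plat and Plau were -1.01 and 2.04 on the log2 scale. The best match of the Plau transcript in any other gene was to Plat, at 76.0% identity over 104 nt.

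Because the activators moved in opposite directions, their ratio changed more than either gene. Plau per Plat was 0.0263, 0.0217 and 0.0256 in the Control libraries and 0.279, 0.2803 and 0.271 in the TGF-β1 libraries. The 3 ratios of each group lay close together and the groups were far apart, with means of 0.0245 ± 0.0025 and 0.277 ± 0.0049 (SD, n = 3), an 11.3-fold difference. Plau made up 2.39 ± 0.24% of the summed FPKM of both activators in Control and 21.7 ± 0.30% with TGF-β1. Plat thus stayed the more abundant activator transcript in all 6 libraries. The sum of both fell from 108 ± 1.93 to 68.7 ± 4.03 FPKM, since the loss of Plat in FPKM exceeded the gain of Plau.

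Plaur encodes uPAR, the glycolipid-anchored receptor that holds urokinase at the cell surface. Its row (ENSMUST00000002284, 7 exons, chromosome 7, 25247519 to 25260892, + strand) is a single annotated transcript without an overlapping gene. Plaur was at 6.70, 3.40 and 7.83 FPKM in Control and at 33.0, 15.5 and 34.0 FPKM with TGF-β1. The groups did not overlap, but replicate 2 was low in both. Group means were 5.98 ± 2.30 and 27.5 ± 10.4 FPKM (SD, n = 3). The gene changed by 2.01 on the log2 scale, with SE 0.38, a 95% interval of 1.10 to 2.93 and an adjusted p of 0.0061 in limma. Its standard error was several times that of Plau for a rise of like size.

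The replicate 2 pattern of Plaur was examined in more detail. Control replicate 2 held 0.468 times, and TGF-β1 replicate 2 0.463 times, the mean of replicates 1 and 3 of its group. The rise within each replicate number was therefore similar, at 4.93-fold, 4.57-fold and 4.34-fold in replicates 1, 2 and 3. With replicate 2 as a batch term the log2 change stayed at 2.01 with an SE of 0.09 (limma adjusted p 1.15e-04), and in replicates 1 and 3 alone it was 2.07 (SE 0.11, limma adjusted p 0.0026). Plaur was 1 of 96 rows, among 10791 tested protein-coding rows, that stood below 0.5 times the mean of replicates 1 and 3 in both groups. For the other 8 pairings of a Control with a TGF-β1 library, the same count was 6 to 18 rows. The 96 rows had a median transcript GC content of 60.7% and a median length of 1321 nt, against 50.4% and 2672 nt over all tested coding rows, and Plaur had 54.7% and 1396 nt. The part of GC content or length in the low values was not tested. None of the other genes of the set was low in both replicate 2 libraries: Plat was at 0.974 and 1.08 times, Plau at 0.812 and 1.10 times, and Serpine2 at 0.934 and 1.10 times their replicates 1 and 3 in Control and TGF-β1.

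**Figure D2:**
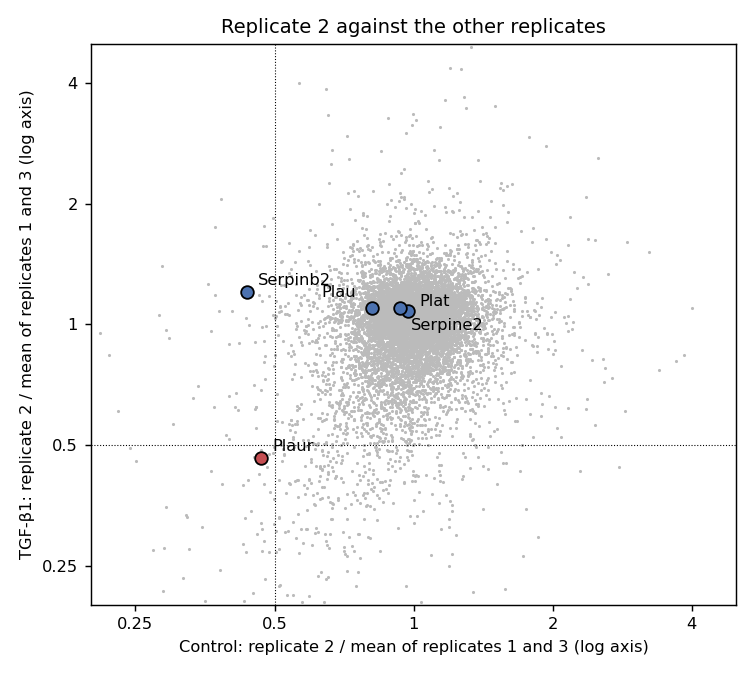
Replicate 2 divided by the mean of replicates 1 and 3, in Control (horizontal) and with TGF-β1 (vertical), both on log axes; grey points are tested protein-coding rows (10676 inside the axes, 115 outside) and large points are the 5 genes. Dotted lines mark a ratio of 0.5. Plaur sits at 0.468 and 0.463, below both lines, and Serpinb2, which rests on few fragments, is below the line in Control only.

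Urokinase and its receptor were also set against each other, as a description. Plau per Plaur was 0.415, 0.659 and 0.348 in Control, against 0.457, 1.02 and 0.404 with TGF-β1. The groups overlapped, and replicate 2 gave the highest ratio in each because Plaur was low there.

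Serpine2 encodes protease nexin-1. Its row (ENSMUST00000027467, 9 exons, chromosome 1, 79790772 to 79855271, - strand) is 1 of 2 annotated transcripts, and no other gene overlaps it. Serpine2 was at 9.98, 9.32 and 9.97 FPKM in Control and at 12.7, 13.7 and 12.3 FPKM with TGF-β1. All 3 TGF-β1 libraries were above all 3 Control libraries, by a small margin. Group means were 9.75 ± 0.38 and 12.9 ± 0.74 FPKM (SD, n = 3), a rise of 32.2%. On the log2 scale it was 0.37, with SE 0.08, a 95% interval of 0.18 to 0.56 and an adjusted p of 0.0103 in limma. A change of at least this size in either direction was common: 46.9% of tested rows changed less, the others as much or more. The call was lost in replicates 1 and 3 alone (log2 change 0.30, limma adjusted p 0.0783) and under the common sum over protein-coding rows, where the log2 change was 0.19 (limma adjusted p 0.11), or 0.38 above the shifted median of all rows.

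Serpinb2 encodes PAI-2. Its row (ENSMUST00000009356, 8 exons, chromosome 1, 109408000 to 109432055, + strand) is 1 of 4 annotated transcripts, and the gene overlaps the pseudogene Serpinb10-ps on the same strand, so its reads are less certain. Serpinb2 was at 0.54, 0.34 and 1.03 FPKM in Control, was listed at 0 in TGF-β1 replicate 1, and was at 0.0558 and 0.0928 FPKM in TGF-β1 replicates 2 and 3. The groups did not overlap, but all values were low and the mean over the 6 libraries was 0.34 FPKM, under the filter. About 37 fragments in the 3 Control libraries stood against about 3 in the 3 TGF-β1 libraries, a ratio of 11.95 after correction for depth, with an exact 95% interval of 3.78 to 60.6 that covers counting error only. In the same limma test without the filter, over 19730 rows, the log2 change was -0.62 (SE 0.15, 95% interval -0.99 to -0.25, adjusted p 0.0269), and 16.0% of all rows were called lower there. Leaving out 1 library ended the call in 4 of 6 cases, namely without Control replicate 1 or without any 1 TGF-β1 library (limma adjusted p up to 0.108), and in replicates 1 and 3 alone (limma adjusted p 0.0853). With a pseudocount of 0.1 in place of 1 the log2 change was -2.24 (limma adjusted p 0.0115).

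**Figure D3:**
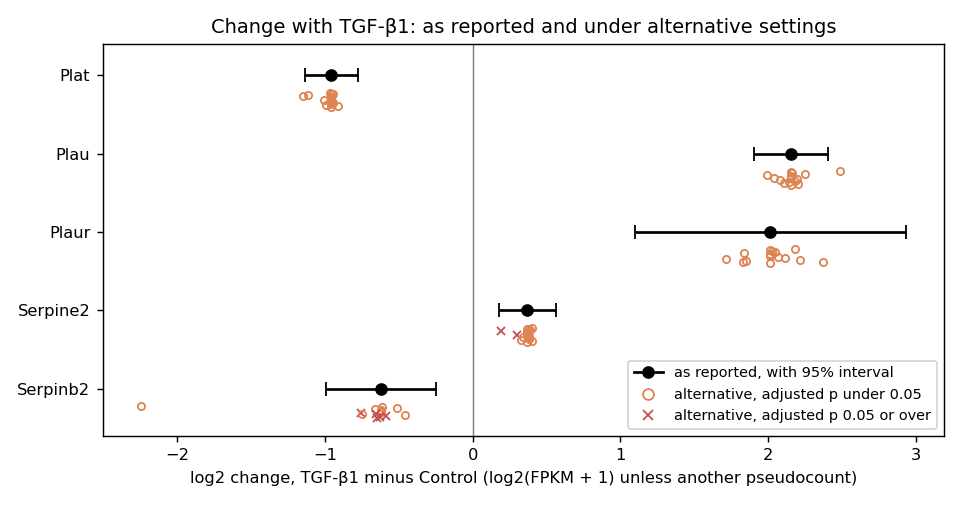
Log2 change of FPKM (TGF-β1 minus Control) of each of the 5 genes. Black points are the reported values with 95% intervals, open circles are alternative settings with an adjusted p under 0.05 and crosses those with 0.05 or over. Plat, Plau and Plaur show circles only, whereas Serpine2 and Serpinb2 have crosses, and the Serpinb2 value at -2.24 is that with a pseudocount of 0.1.

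The order of levels changed with the treatment. In Control, Plat was highest at 10.8 times Serpine2, which was followed by Plaur, Plau and Serpinb2, and no neighbours in this order overlapped in their libraries. With TGF-β1 the order was Plat, at 1.95 times Plaur, then Plaur, Plau, Serpine2 and Serpinb2, so that Serpine2 moved from the second to the fourth place. Plaur and Plau overlapped because of TGF-β1 replicate 2, and the other neighbours did not overlap. Plau and Serpine2 all but touched, however, with the lowest Plau value at 13.75 FPKM and the highest Serpine2 value at 13.71 FPKM. Their means were 1.16-fold apart.

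Both activators were then set against Serpine2 and Serpinb2 as summed FPKM, as a description with no test. Plat plus Plau over Serpine2 plus Serpinb2 was 10.3, 10.9 and 9.93 in Control, against 5.45, 5.26 and 5.21 with TGF-β1. The groups were well apart, and the mean dropped from 10.4 ± 0.50 to 5.31 ± 0.13 (SD, n = 3). The sum of Serpine2 and Serpinb2 went from 10.4 ± 0.68 to 12.9 ± 0.74 FPKM, nearly all of it Serpine2, while that of the activators dropped as given above. The ratio covers these 4 genes only and not the whole inhibitor content of the cells. These are transcript levels, and neither protein nor enzyme activity was measured here.

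**Figure D4:**
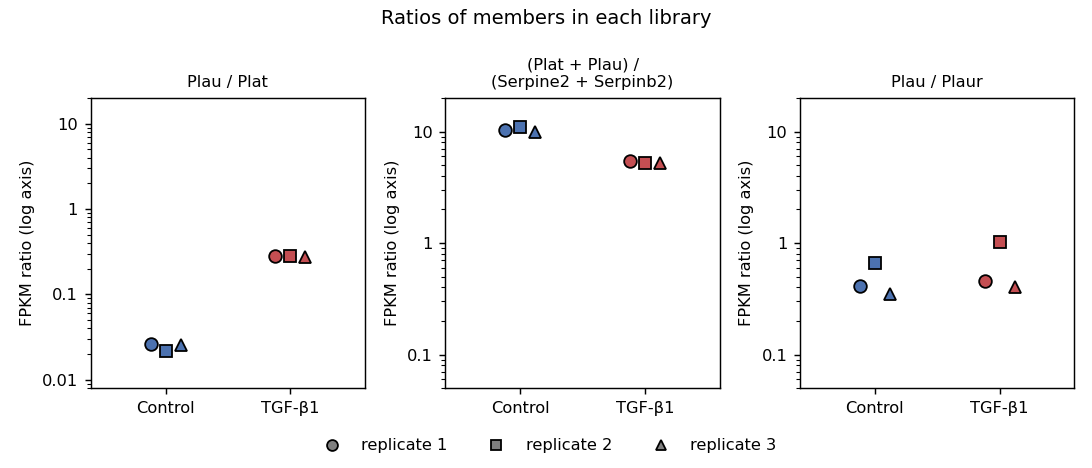
FPKM ratios in each library on log axes, with marker shapes for the replicate number. Left, Plau to Plat rises from 0.0245 to 0.277 on average; middle, activators to Serpine2 plus Serpinb2 drop from 10.4 to 5.31; right, Plau to Plaur overlaps between the groups, with replicate 2 highest in each.

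The rest of the pathway was described by lists of genes, each given as counts of calls and a median log2 change beside that of all tested rows, which was -0.02. In replicates 1 and 3 alone, the 5 lists in the order below held 3, 12, 6, 6 and 7 calls, against 4, 13, 8, 7 and 7 in all libraries. In the plasmin system list, 12 of 17 genes had a row and 5 passed the filter. Of these, 4 rose, none fell and 1 did not pass, with a median of 2.16, which is the value of Prss23. The counts and the median leave out the 7 rows under the filter and so do not describe the list as a whole. The risers were Serpini1 (neuroserpin, an inhibitor of tPA), from 0.415 ± 0.23 to 5.48 ± 0.82 FPKM (2.20 on the log2 scale, adjusted p 1.82e-04), with stretches of its transcript matching 14 other genes at 90% identity or more, the closest Fam81a at 99.0% over 105 nt, and the serine proteases Htra1, Prss23 and Masp1. Htra1 rose from 16.8 ± 2.98 to 80.9 ± 5.401 FPKM, on a row that is annotated as a retained intron and overlaps Fgfr2 on the opposite strand. Prss23, which overlaps 1700019G06Rik on the opposite strand, rose from 35.7 ± 10.5 to 159 ± 16.5 FPKM, and Masp1 from 3.64 ± 0.32 to 6.10 ± 1.11 FPKM. The call of Masp1 was lost in replicates 1 and 3 alone (limma adjusted p 0.05003). Klkb1 (plasma prekallikrein) was at 10.6 ± 0.69 and 9.67 ± 0.47 FPKM (limma adjusted p 0.29), on a row that overlaps Cyp4v3, and under the common sum it was called lower (adjusted p 0.023), so that 4 rose and 1 fell there. Serpinf2, the gene of antiplasmin, and the protease inhibitors Serpina5 and A2m were below 1 FPKM in every library, as was Cpb2, a carboxypeptidase that slows fibrinolysis. Plg, the gene of plasminogen itself, was not analysed here.

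The list of cell surface partners held receptors, adaptors and integrins that bind the activators, uPAR or their inhibitor complexes. It also held others, such as Nid1 and Eno1. Of 16 tested genes, 10 rose, 3 fell and 3 did not pass, with a median of 0.50. Of the risers, S100a10 and Itgb5 lost their calls under quantile normalization and under the common sum, which each left 8 risers. Leaving out 1 library ended the call of S100a10 in 5 of 6 fits and that of Itgb5 in 2. Itgb1, the β1 integrin subunit that associates with uPAR, was highest and had the largest rise, from 259 ± 9.96 to 1026 ± 16.4 FPKM (1.98 on the log2 scale, SE 0.08, adjusted p 1.82e-05). Lrpap1, the chaperone of the LDL receptor family that clears activator and inhibitor complexes, had the largest fall, from 88.9 ± 2.25 to 48.4 ± 8.88 FPKM (-0.88 on the log2 scale, adjusted p 0.0026). Mrc2, the uPAR-associated collagen receptor, and Nid1 also fell, the former on a row annotated as a non-coding transcript, and the call of Nid1 was lost with the replicate block and in 5 of 6 fits that left out 1 library. The clearance receptor Lrp1 was at 223 ± 33.1 and 296 ± 50.8 FPKM (limma adjusted p 0.093, or 0.0471 with the replicate block), and Itgav and Itga3 did not pass either, with adjusted p-values of 0.0746 and 0.946.

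Other serpins were split. Of 11 tested, 2 rose, 6 fell and 3 did not pass, with a median of -0.47. Under quantile normalization and under the common sum, 1 rose and 7 fell, while with a mean of at least 3 FPKM, which left out 4 of the genes that fell, 2 rose and 2 fell. Serpinh1, the collagen chaperone HSP47 and no protease inhibitor, was highest and had the largest rise, from 431 ± 37.4 to 796 ± 83.1 FPKM (0.88 on the log2 scale, adjusted p 0.0015). The other riser, Serpinb6a, went from 200.04 ± 5.76 to 235 ± 9.06 FPKM (0.23 on the log2 scale, adjusted p 0.043). Its transcript is 86.4% identical to Serpinb6c over 1270 nt, the gene overlaps 3 others on the opposite strand, the call was lost with the replicate block and in 5 of 6 fits that left out 1 library (adjusted p up to 0.12), and the change was -0.03 under quantile normalization. Serpinf1, 1 of the 6 that fell, lost its call in replicates 1 and 3 alone (log2 change -0.48, limma adjusted p 0.0609). Serpina10, the protein Z-dependent protease inhibitor, had the largest fall. It was at 2.49, 4.30 and 2.73 FPKM in Control and was listed at 0 in every TGF-β1 library (limma adjusted p 3.22e-04).

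In the list of coagulation genes and thrombin receptors, 8 were tested, 5 rose, 2 fell and 1 did not pass, with a median of 0.43. Of the risers, Tgm2 was near the threshold (limma adjusted p 0.0499), and its call was lost in 5 of 6 fits that left out 1 library. Under quantile normalization and under the common sum that call was lost as well, and 4 rose. F2r, the thrombin receptor PAR1, was highest and rose from 104 ± 13.4 to 184 ± 6.43 FPKM (0.82 on the log2 scale, SE 0.11, adjusted p 0.0014). Procr, the receptor of protein C, rose as much on this scale (0.82) and more under quantile normalization (0.87 against 0.60). Pros1 (anticoagulant protein S) had the largest fall, from 18.8 ± 1.10 to 9.48 ± 1.76 FPKM (-0.93 on the log2 scale, adjusted p 0.0020). F3, tissue factor, was the other gene that fell (adjusted p 0.0221), a call lost without Control replicate 1 or without any 1 TGF-β1 library (adjusted p up to 0.0719), and the pathway inhibitor Tfpi did not pass (limma adjusted p 0.337).

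The last list held growth factors and their receptors, matrix proteases and latent TGF-β genes, on which plasmin and its activators act or beside which they work. Of 9 tested genes, 6 rose, 1 fell and 2 did not pass, with a median of 1.07. Thbs1 (thrombospondin 1, an activator of latent TGF-β) had the largest rise, from 18.2 ± 0.34 to 221 ± 15.2 FPKM (3.53 on the log2 scale, SE 0.08, adjusted p 3.26e-06). Mmp2 (gelatinase A) was highest, at 412 ± 47.4 and 579 ± 35.0 FPKM (0.50 on the log2 scale, adjusted p 0.0125), and that call was lost under quantile normalization and under the common sum, with adjusted p-values of 0.105 and 0.0664. Met, the receptor of hepatocyte growth factor, which urokinase can activate, fell from 12.996 ± 0.72 to 7.11 ± 0.47 FPKM (-0.79 on the log2 scale, adjusted p 6.65e-04). Pdgfd and Ltbp1 did not pass, with adjusted p-values of 0.86 and 0.928.

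**Figure D5:**
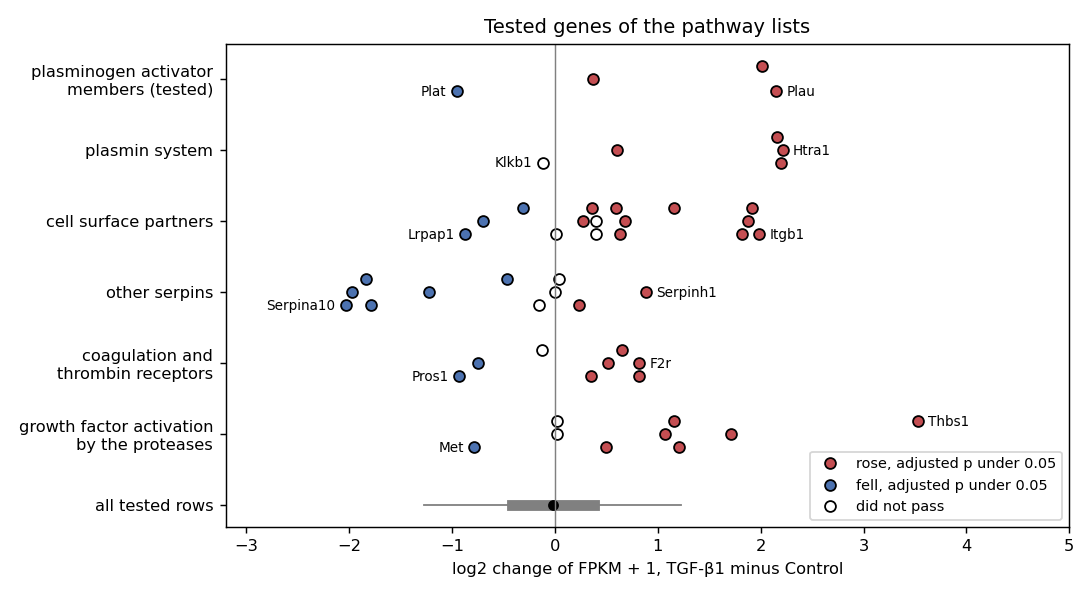
Log2 change of FPKM + 1 (TGF-β1 minus Control) of each tested gene in the pathway lists, red where it rose, blue where it fell and open where it did not pass; names mark the ends of each list. The bottom row gives all tested rows as the median (-0.02), the range from the 25th to the 75th percentile (thick, -0.42 to 0.38) and that from the 5th to the 95th percentile (thin, -1.28 to 1.23). Thbs1 lies at 3.53, and 6 of the 11 other serpins fell.

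Genes with the most similar profile were sought among 10845 tested protein-coding rows, as the smallest root mean square difference from the member over the 6 values of log2(FPKM + 1), each centred on the Control mean. For Plat they were Macf1 (a cytoskeletal crosslinker, difference 0.0195), Atxn7l1 (0.0302) and Zfp318 (0.045). For Plau they were Csgalnact1 (an enzyme of chondroitin sulfate synthesis, 0.0554), Megf10 (an engulfment receptor, 0.071) and Cyp51 (an enzyme of cholesterol synthesis, 0.0713). For Plaur they were Csrp2 (a LIM protein of smooth muscle, 0.129), Atf5 (a stress response transcription factor, 0.162) and Gadd45b (a stress-inducible gene, 0.167). The Plaur matches were less close, and like Plaur they carried the low replicate 2 values that the measure includes. For Serpine2 they were Atp6ap1 (an accessory subunit of the proton pump, 0.0171), Spin1 (0.022) and Usp33 (a deubiquitinase, 0.0234), and for Serpinb2 Snx21 (0.0543), Men1 (menin, 0.0567) and Fchsd1 (0.0595). All 3 Serpinb2 matches were expressed well above Serpinb2 and fell by a smaller factor. Snx21 went from 11.9 to 7.34 FPKM, against Serpinb2 from 0.636 to 0.0495 FPKM. They still matched because the added 1 FPKM shrinks the log2 change of a low gene. Likewise Megf10, matched to Plau, went from 0.0311 to 3.64 FPKM. Of the 15 names, 2 were also among the nearest 3 by Pearson correlation, Macf1 for Plat and Gadd45b for Plaur.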

How the data were processed

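RNA-Seq of total RNA (TRIzol, Illumina HiSeq) was analysed in 3 Control and 3 TGF-β1 libraries, grouped and numbered by the labels. After quality filtering, the authors mapped reads to mm9 with TopHat and estimated expression with Cufflinks. The deposited values are FPKM in 6 columns, each matched to a sample, and no further scaling is described. The authors tested with a count model, and counts were not used here. Of 19730 rows, 19699 were found by transcript identifier in the mm9 annotation (GENCODE M1), from which positions and transcript sequences came, and promoter letters came from the mm9 genome. Whether a row holds its gene or only its named transcript, and whether reads were counted by strand, is not stated.

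The groups were compared in R 4.3.3 with limma 3.58.1 (lmFit, then eBayes, trend on). Input was log2(FPKM + 1) of rows with a mean of at least 1 FPKM, which understates changes of low genes. The steps were run on simulated data with independent noise in each row. The simulation held far fewer changed rows than were called here and no shared replicate 2 effect, so it cannot show how the fit handles either. Depth came from single-transcript genes with up to 6.5 fragments, assuming fragments of 200 nt: 99.5 to 99.9% of these values lay within 0.1 of a whole fragment, where evenly spread values give 20%. Fragment numbers are approximate, and their intervals cover counting error only. Matches to other genes were sought with blastn 2.17.0 over at least 100 nt. Other steps ran in Python 3.11.15 with scipy 1.17.1, pandas 2.3.3, numpy 2.4.6 and, for figures, matplotlib 3.10.9.

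The replicate numbers were checked for pairing. Deviations from the group means, across 10791 coding rows, correlated at 0.210, 0.418 and 0.152 for same-numbered libraries 1, 2 and 3. Control replicate 1 and TGF-β1 replicate 3 also correlated at 0.201, and Control replicate 3 and TGF-β1 replicate 1 at 0.127. Only the replicate 2 pair stood above all other pairings. The values cannot pair replicates 1 and 3, since the 3 deviations within a group are not independent. The replicate block is therefore given as an alternative only. The likeness of the replicate 2 libraries comes from the data, and the labels name no shared batch. The alternatives were another pseudocount, filter, scaling or trend setting, a replicate block, a batch term for replicate 2, replicates 1 and 3 alone, each library left out, and a threshold of 0.01.

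The genes and lists were chosen with earlier results of these data known, so list counts are descriptions. Named were the 5 genes, from each list the tested gene with the highest mean and the called ones with the largest rise and fall, and the 3 nearest profiles. Other names were chosen after their values were seen: members of counts of 5 or fewer, calls lost under an alternative, and rows under the filter. Some genes of the lists are not reported here.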

Additional observations from a re-analysis of the deposited data

How the results depend on the processing

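Of 78 values of the 5 genes under alternative settings, all kept their direction and 71 their side of the threshold. Plat, Plau and Plaur kept theirs throughout. Serpine2 lost its call under the common sum over protein-coding rows (log2 change 0.19) and in replicates 1 and 3 alone (0.30). Serpinb2 lost it in replicates 1 and 3 alone (-0.76) and in 4 of 6 fits that left out 1 library, which ranged from -0.75 to -0.46, and with a mean of at least 3 FPKM it gave no value. The cause was not tested, beyond the fewer samples in the smaller fits.

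With the replicate block, which pairs same-numbered libraries, 5391 of all tested rows were called against 5721 without it. The block changed the call of none of the 5 genes, and that of Plaur was closer (SE 0.09 against 0.38). In the lists it ended the calls of S100a10, Nid1, Serpinb6a and Tgm2 and gave one for Lrp1, so that 10 cell surface partners rose and 2 fell, 1 of the other serpins rose and 6 fell, and 4 coagulation genes rose and 2 fell. A threshold of 0.01 left 3672 rows, and leaving out 1 library gave 4419 to 5446. A filter at 3 FPKM left 4 calls among other serpins, 2 higher and 2 lower, fewer genes being tested. The activator ratio was not run with another set of genes. Pearson correlation shared 2 of the 15 nearest genes. Serpinb2 rested on about 37 fragments in Control and 3 with TGF-β1.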

Other observations

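Some pathway genes under the filter differed between the groups as well, in the same limma test without the filter. They were picked after their values were seen, and Lrp2 is also among the tubular epithelial marker rows given above. Lrp2 (megalin, an endocytic receptor that takes up urokinase complexes) was at 1.09, 1.93 and 1.27 FPKM in Control and at 0.245, 0.233 and 0.212 FPKM with TGF-β1 (adjusted p 0.0037), and Sorl1, another receptor of that family, fell from 0.59 ± 0.14 to 0.0342 ± 0.0126 FPKM (adjusted p 0.0021). The groups did not overlap for either gene, nor in 59.4% of the rows that passed the filter. That share was not computed for rows under the filter. Without the filter, 6026 of 19730 rows were called, 2873 higher and 3153 lower. Serping1, the inhibitor of complement C1 and of plasma kallikrein, was at 0.748, 1.10 and 0.887 FPKM in Control and listed at 0 in every TGF-β1 library (adjusted p 5.59e-04). Mmp9 (gelatinase B) had 0 as its listed value in all Control libraries and was at 0.591, 0.966 and 0.59 FPKM with TGF-β1 (adjusted p 0.0022). Its row names a short transcript of 416 nt, 1 of 4 annotated for the gene. If the row holds that transcript alone, these values rest on very few fragments.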
